A study of Rattus norvegicus with 6 samples.

Results

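The respiratory complex I subunits encoded in the nucleus were followed in heart RNA of rats given saline or ISO. ISO is the labels' abbreviation, taken here to mean isoproterenol, which activates beta-adrenergic receptors. Members were the rows of the count table named Ndufa, Ndufb, Ndufc, Ndufs or Ndufv with a number, or Ndufab1, that held at least 60 counts over the 6 libraries. This gave 37 of 39 candidate symbols, out of 32883 rows with a rat Ensembl identifier. Of the 37, 36 passed the filter on low counts and were tested. The candidates left out were Ndufs6, with 17 counts in all, and Ndufa10l1, with 0 counts. Male Sprague–Dawley rats, labelled wild type and 8 weeks old, received 1.5 mg/kg/day of ISO under the skin for 7 days (3 rats) or the same volume of saline over the same days (3 rats). Each library came from the heart of 1 rat, per the series description, which calls the ISO rats a model of myocardial hypertrophy and fibrosis. The RNA came from heart tissue with its cell types mixed, and only 1 dose and 1 time were studied.

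Complex I, the NADH:ubiquinone oxidoreductase of the inner mitochondrial membrane, takes electrons from NADH, passes them along a chain of iron-sulfur clusters to ubiquinone and pumps protons. It is L-shaped, with an arm in the matrix and an arm in the membrane. The tip of the matrix arm, the N module, oxidises NADH, and the Q module beneath it reduces ubiquinone. The membrane arm pumps the protons and is built in stretches named after the mitochondrially encoded subunits ND1, ND2, ND4 and ND5. Core subunits are shared with bacteria and carry out catalysis, whereas accessory subunits surround them and serve assembly and stability. Heart muscle is rich in mitochondria and draws most of its ATP from oxidative phosphorylation.

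The 6 libraries held between 14880391 and 17299589 counts. Levels are given in CPM, read counts scaled to library size with TMM factors, and they are not divided by gene length, so levels are compared between libraries and not between genes. The tissue showed its cardiomyocyte markers in every library, among them Actc1, the cardiac actin gene, at 16069, 14771 and 15516 CPM in saline libraries 1 to 3 and at 6492, 7504 and 6433 CPM in ISO libraries 1 to 3. The summed level of 14 cardiomyocyte markers was 92186, 78276 and 86417 CPM in saline libraries 1 to 3 and 61493, 76842 and 52408 CPM in ISO libraries 1 to 3. The 10 fibroblast markers summed to 3906, 4339.8 and 3443 CPM in saline and 9694, 7697 and 21234 CPM in ISO, and the 10 macrophage markers to 365, 452 and 377 and 869, 815 and 1830.5 CPM. ISO library 3 therefore had the most fibroblast and macrophage marker RNA and the least cardiomyocyte marker RNA. ISO library 1 stood apart in atrial genes, with 1128 counts of Myl7, the atrial myosin light chain, against 0 to 25 in the other 5 libraries, and 670 of Sln against 0 to 13. Myl4, Bmp10 and Mybphl were likewise highest there. Without ISO library 1, 0 complex I members were called and their median log2 fold change was −0.19, with 28 of 36 below 0. Over all tested genes, edgeR called 409 of 13766 (2.97%) at an adjusted p under 0.05, 203 higher and 206 lower in ISO. Without ISO library 2 the number was 838, and without any other single library it was between 12 and 295.

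No complex I member changed at the threshold. In edgeR's quasi-likelihood test with Benjamini-Hochberg adjustment, 0 of 36 tested members were called, against 2.97% of all tested genes. At an unadjusted p under 0.05, 7 members were lower in ISO (19.4% of 36, against 10.9% of all genes) and 0 were higher (against 12% of all genes). The 7 were Ndufs1, Ndufs3 and Ndufs4 of the matrix arm, Ndufa3, Ndufa10 and Ndufb5 of the membrane arm, and Ndufab1. DESeq2 called 5 members lower at an adjusted p under 0.05 (13.9%, against 4.28% of the genes it adjusted), namely Ndufa3, Ndufb5, Ndufs1, Ndufs3 and Ndufs4. The voom method of limma called 0, against 2.39% of all genes, with 7 lower at an unadjusted p under 0.05 (19.4%, against 10.9%). The series' description counts a gene as differing in DESeq2 when its log2 fold change exceeds 0.5 in size at p under 0.05 before adjustment. By that criterion 1 member, Ndufa3, was lower in ISO (2.78%, against 3.21% of genes).

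Differences were small and mostly negative. The log2 fold changes of ISO over saline ran from −0.54 for Ndufa3 to 0.26 for Ndufa12, with a median of −0.17 over the 36 members against 0.02 over all tested genes. They lay below 0 in 28 of 36 members (77.8%), against 47.7% of all genes. Standard errors ran from 0.103 to 0.301, and the 95% interval of the difference held 0 in 29 members. The outermost bounds of these intervals were −0.93 and 0.85. The median depended on single libraries and on scaling. It was −0.05 without ISO library 3, −0.30 without ISO library 2 and −0.07 without scaling, where the median over all genes also moved, to 0.13.

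**Figure D1:**
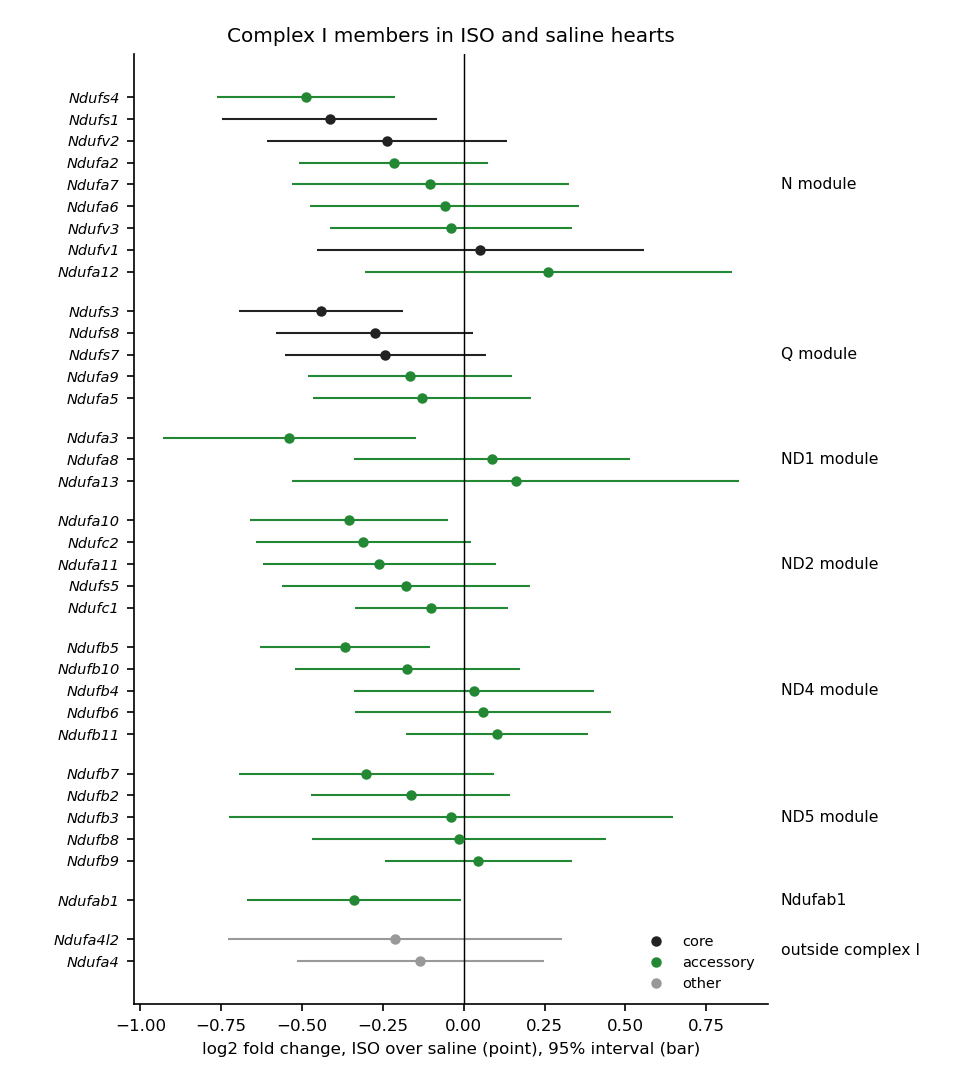
Log2 fold change of ISO over saline (x axis) for 35 of the tested members, 1 row per gene, grouped by module, with core, accessory and other members in separate colours. Points are edgeR estimates over 3 libraries per group and bars are 95% intervals; 27 of these points lie left of 0 and 28 of these intervals hold 0.

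The core subunits of the matrix arm include Ndufv1, Ndufv2 and Ndufs1 in the N module and Ndufs3, Ndufs7 and Ndufs8 in the Q module. Ndufv1 binds NADH and its flavin cofactor. It stood at 739, 526 and 597 CPM in saline libraries 1 to 3 and at 608, 843 and 479 CPM in ISO libraries 1 to 3. The groups overlapped, with the highest and the lowest of the 6 values both in ISO, and the log2 fold change was 0.05 (SE 0.221, edgeR adjusted p = 0.918). Ndufv2, which carries an iron-sulfur cluster beside the flavin, stood at 599.5, 456 and 581 CPM in saline libraries 1 to 3 and at 431, 547 and 411 CPM in ISO libraries 1 to 3. Its groups also overlapped, at −0.24 (SE 0.162, edgeR adjusted p = 0.42). Ndufs1, the large iron-sulfur subunit and the member with the most counts, stood at 1097, 1105 and 978 CPM in saline libraries 1 to 3 and at 745, 929 and 710.1 CPM in ISO libraries 1 to 3. All 3 ISO libraries lay below all 3 saline libraries, and the log2 fold change was −0.42 (SE 0.145, edgeR adjusted p = 0.142).

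In the Q module, Ndufs3, an early building block of the matrix arm, stood at 339, 355 and 333 CPM in saline libraries 1 to 3 and at 250.1, 274 and 233 CPM in ISO libraries 1 to 3. The saline values lay close together and every ISO value lay below them, at −0.44 (SE 0.111, edgeR adjusted p = 0.0691) with a 95% interval of −0.70 to −0.19. Ndufs8, which carries iron-sulfur clusters on the path to ubiquinone, also had ISO below saline without overlap. It stood at 294, 258 and 274 CPM in saline libraries 1 to 3 and at 235, 255 and 192 CPM in ISO libraries 1 to 3, and the difference was −0.28 (SE 0.133, edgeR adjusted p = 0.255) on the log2 scale. Ndufs7, which lies beside the ubiquinone site, overlapped between groups. It stood at 472, 422 and 402 CPM in saline and 359.8, 415 and 320.0 CPM in ISO, with −0.24 (SE 0.135, edgeR adjusted p = 0.321). The accessory subunits of all modules had log2 fold changes below 0 in 20 of 27, with a median of −0.13.

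Among accessory subunits of the matrix arm, Ndufs4 had the smallest p of all members. Ndufs4 is needed for the stable attachment of the N module, and its loss causes mitochondrial disease in mice and humans. It stood at 249, 252 and 263 CPM in saline libraries 1 to 3 and at 176, 206 and 163 CPM in ISO libraries 1 to 3. The 3 saline values lay within a ratio of 1.06 and every ISO value was lower, at −0.49 (SE 0.12, edgeR adjusted p = 0.0677) on the log2 scale and a 95% interval of −0.76 to −0.21. Without ISO library 2, the ISO library with the most Ndufs4, the change was −0.59 and was called (edgeR adjusted p = 0.0297). Ndufs3 and Ndufs1 were called in the same fit, at −0.51 and −0.55 (edgeR adjusted p = 0.041 and 0.045), and in that fit 5.95% of all genes were called. With any other single library left out, none of these members was called. The edgeR adjusted p of Ndufs4 then lay between 0.126 and 0.219.

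The other accessory subunits of the matrix arm showed smaller differences. Ndufa2, Ndufa5, Ndufa6, Ndufa7, Ndufa9 and Ndufv3 had log2 fold changes between −0.22 and −0.04, and the groups overlapped in each. Ndufa12, which sits at the contact of the N and Q modules, had the highest log2 fold change of all members. It stood at 27.9, 23.8 and 48.6 CPM in saline libraries 1 to 3 and at 39.3, 44.7 and 36.3 CPM in ISO libraries 1 to 3. Saline library 3 lay above the ISO libraries and saline libraries 1 and 2 below them, and the change was 0.26 (SE 0.247, edgeR adjusted p = 0.574).

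In the membrane arm, Ndufa3 of the ND1 module had the lowest log2 fold change of all members. It stood at 97.2, 82.2 and 117 CPM in saline libraries 1 to 3 and at 66.5, 80.8 and 57.1 CPM in ISO libraries 1 to 3. Every ISO value was below every saline value, though saline library 2 and ISO library 2 nearly touched. The change was −0.54 (SE 0.17, edgeR adjusted p = 0.114), and without saline library 3 it was −0.40. Ndufa13, also known as GRIM-19, an accessory subunit of the same module, stood at 306, 130.2 and 202 CPM in saline libraries 1 to 3 and at 250.4, 288 and 175 CPM in ISO libraries 1 to 3. Saline libraries 1 and 2 lay at the extremes of all 6 values, and the change was 0.16 (SE 0.301, edgeR adjusted p = 0.795). It was −0.10 without saline library 2 and −0.0033 without ISO library 2. Ndufa8 of this module overlapped between groups, at 0.09.

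All 5 members of the ND2 module had log2 fold changes below 0, with a median of −0.26. Ndufa10, which resembles nucleoside kinases in sequence, stood at 448, 431 and 425 CPM in saline libraries 1 to 3 and at 346, 386 and 288 CPM in ISO libraries 1 to 3. The saline values lay within a ratio of 1.05 and all ISO values lay below them, at −0.35 (SE 0.133, edgeR adjusted p = 0.165). Ndufc2, a small membrane-spanning subunit, stood at 174, 143 and 159 CPM in saline libraries 1 to 3 and at 122, 152 and 110.3 CPM in ISO libraries 1 to 3. Its groups overlapped because ISO library 2 lay above saline library 2, and the change was −0.31 (SE 0.145, edgeR adjusted p = 0.242). Ndufa11, Ndufs5 and Ndufc1 lay between −0.26 and −0.10 with overlap.

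The distal membrane arm, made of the ND4 and ND5 modules, held members on both sides of 0. Ndufb5 of the ND4 module stood at 440.2, 469.6 and 450.1 CPM in saline libraries 1 to 3 and at 361, 376 and 318 CPM in ISO libraries 1 to 3. The saline values lay close together with every ISO value below them, and the change was −0.37 (SE 0.115, edgeR adjusted p = 0.111). Ndufb11, an accessory subunit of the same module, stood at 332, 296 and 288 CPM in saline libraries 1 to 3 and at 332, 359 and 293 CPM in ISO libraries 1 to 3. Its groups overlapped, and the change was 0.10 (SE 0.123, edgeR adjusted p = 0.664). Ndufb4, Ndufb6 and Ndufb10 lay between −0.18 and 0.06. The 5 members of the ND5 module had a median of −0.04, from −0.30 for Ndufb7 to 0.05 for Ndufb9, and all overlapped between groups. Ndufb1, a subunit of the ND4 module, was not analysed here.

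Ndufab1, the mitochondrial acyl carrier protein, is bound at both arms and also serves fatty acid and lipoic acid synthesis. It stood at 393, 332 and 375 CPM in saline libraries 1 to 3 and at 294, 333 and 242 CPM in ISO libraries 1 to 3. The lowest saline value and the highest ISO value nearly coincided, and the change was −0.34 (SE 0.144, edgeR adjusted p = 0.209). Ndufa4 and Ndufa4l2 carry the family name only, since Ndufa4 is now counted as a subunit of complex IV and Ndufa4l2 is its hypoxia-inducible relative. Ndufa4 stood at 637, 654 and 671 CPM in saline and 556, 744 and 487 CPM in ISO, with −0.13 (SE 0.166, edgeR adjusted p = 0.676). Ndufa4l2 stood at 9.6, 8 and 10.4 CPM in saline and 9.33, 9.04 and 5.78 CPM in ISO, with −0.21 (SE 0.225, edgeR adjusted p = 0.619). Both overlapped between groups.

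Ndufa1, a small membrane-arm subunit, was the member with the fewest counts and was not tested. It had 8, 10 and 4 counts in saline libraries 1 to 3 and 5, 246 and 8 counts in ISO libraries 1 to 3. These are 0.545, 0.625 and 0.253 CPM in saline and 0.313, 15.3 and 0.467 CPM in ISO, where 3 counts correspond to between 0.175 and 0.204 CPM. ISO library 2 thus held most of the reads of this gene, and the other 5 libraries held 10 or fewer each. Part of the reads of a subunit can go to near-identical copies elsewhere in the genome, and the sources used here do not say how such reads were counted. Echs1, a gene of fatty acid oxidation, also had most of its reads in ISO library 2, with 351 counts against 24 to 40 in the other 5 libraries. Why ISO library 2 differed in these genes was not tested.

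**Figure D2:**
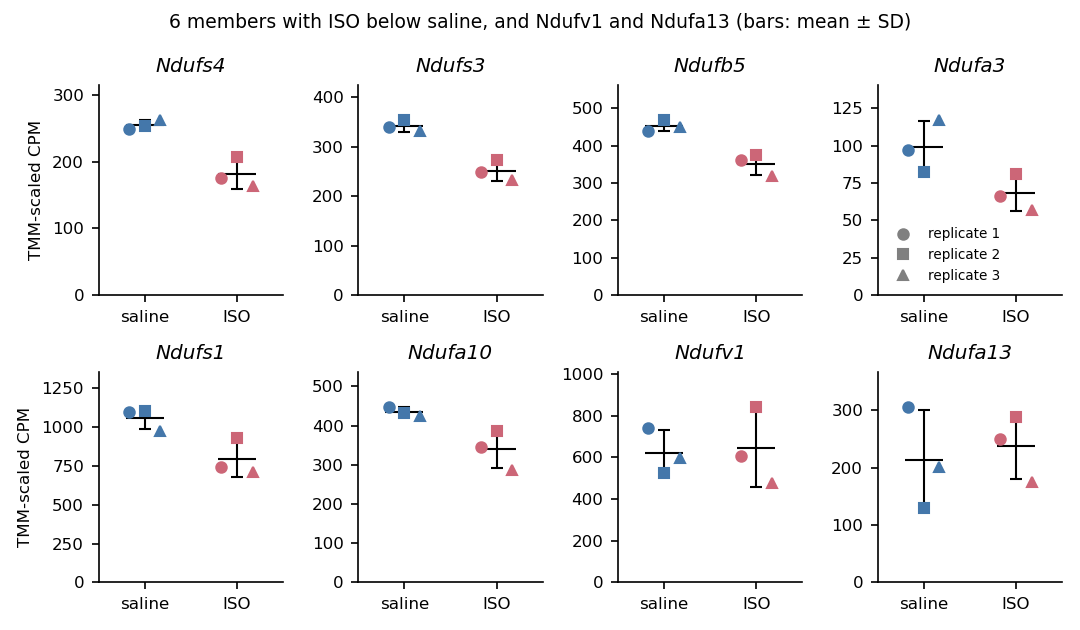
TMM-scaled CPM (y axis, from 0) of 8 members in saline and ISO hearts, 1 point per library with the symbol giving the replicate, and bars for mean ± SD over 3 libraries. The 3 ISO points lie below the 3 saline points in Ndufs4, Ndufs3, Ndufb5, Ndufa3, Ndufs1 and Ndufa10, and the groups overlap in Ndufv1 and Ndufa13.

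The groups did not overlap in 7 of 36 members, with ISO below saline in all 7 (19.4%, against 14.6% of all tested genes). ISO lay above saline without overlap in 0 members, against 14.1% of all genes. The 7 were Ndufa3, Ndufa10, Ndufb5, Ndufs1, Ndufs3, Ndufs4 and Ndufs8. In these 7 the highest saline library exceeded the lowest by 1.05 to 1.43 times. Over all 36 members that ratio had a median of 1.21 in saline and 1.38 in ISO. It was above 2 in 3 members, Ndufa13 at 2.35, Ndufb3 at 2.13 and Ndufa12 at 2.04.

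The members followed a shared order of libraries. Within ISO, library 3 was the lowest in 36 of 36 members, against 35.6% of all tested genes, and library 2 was the highest in 34 of 36, against 36.6% of all genes. Within saline, library 2 was the lowest in 24 of 36, against 38% of all genes, and library 1 the highest in 26 of 36, against 32.9%. Relative to each member's saline mean, the median log2 value was 0.11, −0.15 and 0.01 in saline libraries 1 to 3 and −0.17, 0.02 and −0.43 in ISO libraries 1 to 3. Members below their saline mean numbered 27, 14 and 35 of 36 in ISO libraries 1 to 3. By this median, ISO library 2 therefore lay within the saline range, ISO library 1 just below it and ISO library 3 further below. The 40 tested nuclear subunits of complexes II to V had ISO library 3 lowest in 38 (against 35.6% of all genes) and ISO library 2 highest in 40 (against 36.6%).

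**Figure D3:**
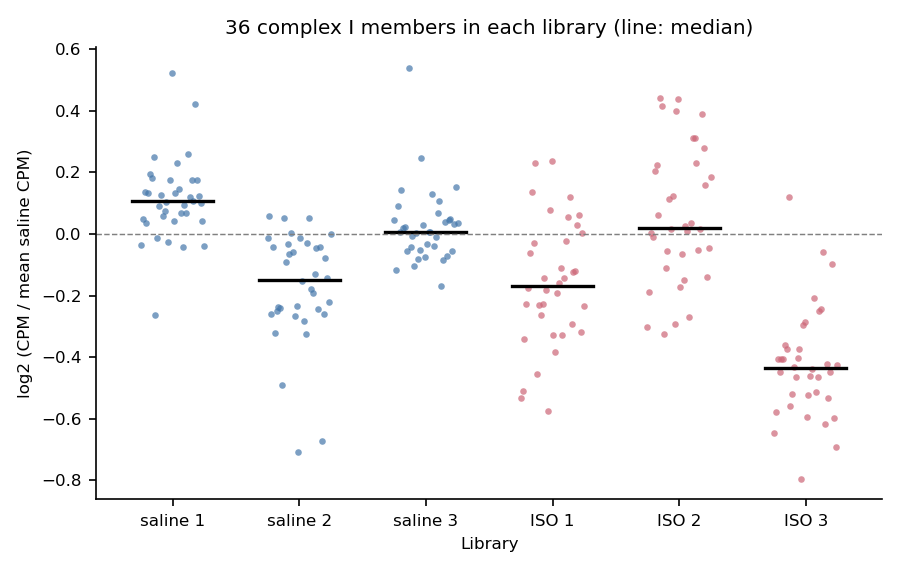
Log2 ratio of TMM-scaled CPM to the saline mean of the same gene (y axis) for the 36 tested members in each of the 6 libraries (x axis), 1 point per gene, with a black line at the median. The medians are 0.11, −0.15 and 0.01 in saline libraries 1 to 3 and −0.17, 0.02 and −0.43 in ISO libraries 1 to 3.

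Cardiomyocyte markers had the same order of ISO libraries. Summed over the 37 members, the level was 12166, 10479 and 11216 CPM in saline libraries 1 to 3 and 9866, 11734 and 8389 CPM in ISO libraries 1 to 3, which is 11287 ± 846 against 9996 ± 1676 CPM (SD, n = 3 each). Of the 14 tested cardiomyocyte markers, 13 were also lowest in ISO library 3 among the ISO libraries (against 35.6% of all genes) and 13 were highest in ISO library 2 (against 36.6%). The list ranged from 78276 to 92186 CPM in saline and from 52408 to 76842 CPM in ISO. It had 1 marker called lower, Actc1, and a median log2 fold change of −0.29. The markers did not all fall. Of the 14, 11 had log2 fold changes below 0 (against 47.7% of all genes) and 3 above, namely Myh7, Tnnt2 and Tnni3. ISO lay below saline without overlap in 5 (against 14.6%) and above in 1, Myh7 (against 14.1%). The fibroblast list ranged from 3443 to 4339.8 CPM in saline and from 7697 to 21234 CPM in ISO, with 3 of 10 called higher, and the macrophage list had 5 of 10 called higher. No gene of these 3 lists was at 0 counts in any library, and all 10 of each of the last 2 lists had log2 fold changes above 0, among them Postn at 5.71 and C1qa at 1.15. Of other lists, edgeR called 0 of 9 endothelial, 0 of 8 smooth muscle and 0 of 3 lymphocyte markers, 1 of 4 atrial markers higher (Nppa), 1 of 6 erythroid markers lower (Hemgn) and the 1 tested adipocyte marker higher (Cfd). These marker calls are from the fit to all 6 libraries, in which 2.97% of all genes were called. Erythroid markers summed to 2863, 7269 and 2479 CPM in saline and 2732, 2971 and 873 CPM in ISO, highest in saline library 2 and lowest in ISO library 3. In a bulk sample, fewer cardiomyocytes and less RNA per cardiomyocyte cannot be told apart, and the part of cell composition in the complex I values was not tested.

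**Figure D4:**
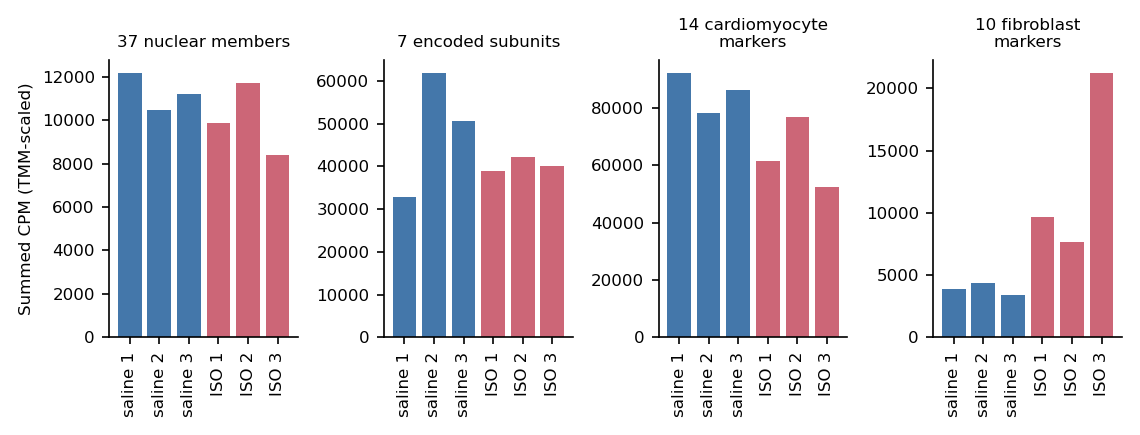
Summed TMM-scaled CPM (y axes, from 0 and differing between panels) of the 37 nuclear members, the 7 mitochondrially encoded subunits, 14 cardiomyocyte markers and 10 fibroblast markers in each library (x axes). Nuclear complex I and cardiomyocyte sums are lowest in ISO library 3, where the fibroblast sum is highest, and the encoded subunits vary most among the saline libraries.

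The balance among subunits can be read without library scaling. Each member was also given as its share of the summed counts of the 35 members that belong to complex I, where a lower share of some members goes with a higher share of others. Of the 34 tested members among them, 7 had a lower share in every ISO library than in any saline library (20.6%), and 5 had a higher share without overlap (14.7%). Taken the same way, per complex I count, 4.36% of all tested genes lay lower and 20.9% higher without overlap. These all-gene figures are not a like background for the members. The complex I sum that divides them was itself lower in ISO libraries 1 and 3 (9301 and 7896 CPM) than in saline (9817 to 11520 CPM), which raises the values of other genes there. The lower 7 were Ndufa3, Ndufa10, Ndufab1, Ndufc2, Ndufs1, Ndufs4 and Ndufs8, and the higher 5 were Ndufa8, Ndufb4, Ndufb6, Ndufb9 and Ndufb11. All 5 of the latter are membrane-arm subunits, and these were singled out after their values were seen. Of the 34 tested members, 18 belong to the membrane modules, and Ndufa3, Ndufa10 and Ndufc2 of the lower 7 are among them. With 3 libraries per group the smallest p an exact permutation test can give is 0.1, so no single share could reach the threshold.

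Ndufs4 took 2.16, 2.57 and 2.49% in saline libraries 1 to 3 and 1.89, 1.88 and 2.06% in ISO libraries 1 to 3, always of complex I counts. Ndufs1 took 9.52, 11.3 and 9.28% in saline libraries 1 to 3 and 8.01, 8.46 and 8.99% in ISO libraries 1 to 3. For Ndufa3 the shares were 0.844, 0.838 and 1.11% in saline libraries 1 to 3 and 0.715, 0.735 and 0.723% in ISO libraries 1 to 3. Each of these was lower in every ISO heart, including ISO library 2, whose complex I total lay within the saline range. Ndufb11 took 2.88, 3.02 and 2.74% in saline libraries 1 to 3 and 3.57, 3.27 and 3.72% in ISO libraries 1 to 3. The share of Ndufb9 was 5.38, 5.5 and 5.2% in saline libraries 1 to 3 and 6.38, 5.79 and 6.74% in ISO libraries 1 to 3. Both were higher in every ISO heart. The shares of Ndufs3 overlapped, with ISO library 3 and saline library 1 both at 2.95%. By arm, the summed CPM of the N and Q modules over that of the 4 membrane modules was 1.25, 1.37 and 1.27 in saline libraries 1 to 3 and 1.16, 1.24 and 1.22 in ISO libraries 1 to 3. The ISO values of this ratio all lay below the saline values, though the highest, 1.24, came close to the lowest saline value, 1.25. The ratio was formed after the data were seen and has no test here. Ndufs1, which has the largest share of complex I counts, is part of the N module sum. The ratio was not formed without it, so it does not show a shift of the arms as a whole.

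**Figure D5:**
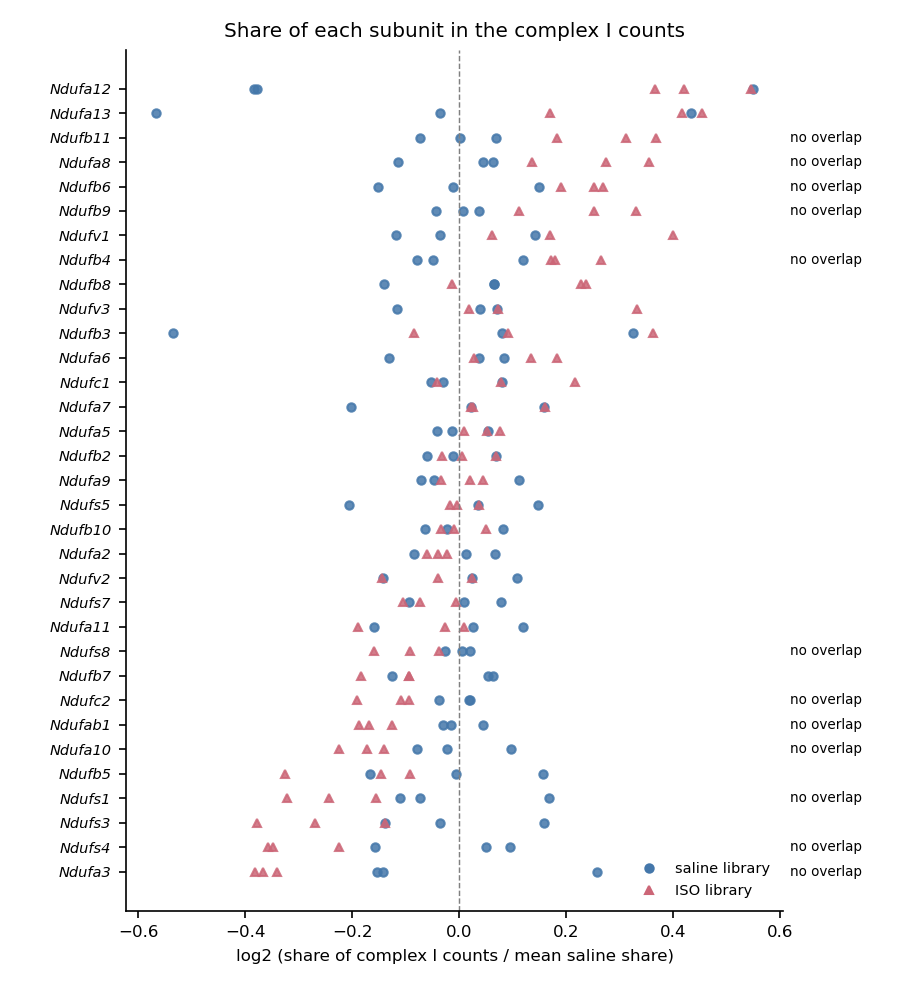
Log2 ratio of each subunit's share of complex I counts to its mean saline share (x axis) for 33 of the tested complex I members (1 row per gene), with circles for the 3 saline and triangles for the 3 ISO libraries. Rows whose groups do not overlap are marked; there are 7 with ISO on the left and 5 with ISO on the right.

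The remaining core subunits of complex I are encoded in mitochondrial DNA and form the proton-pumping membrane core. None of the 7 was called by edgeR (against 2.97% of all genes), by DESeq2 (against 4.28% called lower) or by voom (against 2.39%). With only 7 genes, 0 calls does not set them apart from all genes. At an unadjusted p under 0.05, edgeR and voom took 0 of 7, and DESeq2 took ND4L (unadjusted p = 0.0218). Over all genes, edgeR took 10.9% lower and 12% higher at that threshold, and voom 10.9% lower. Their log2 fold changes ran from −0.40 for ND4L to 0.21 for ND4, with 6 of 7 below 0. ND1, which sits at the ubiquinone entry, stood at 9247, 20933 and 15944 CPM in saline libraries 1 to 3 and at 12129, 13434 and 12914 CPM in ISO libraries 1 to 3. The saline values spanned all ISO values, and the change was −0.26 (SE 0.284, edgeR adjusted p = 0.629). ND4L, the encoded subunit with the smallest p, stood at 1590.3, 2455 and 2379.5 CPM in saline and 1544, 1812 and 1497 CPM in ISO, with −0.40 (SE 0.193, edgeR adjusted p = 0.251). ND2, ND3, ND4, ND5 and ND6 gave −0.36, −0.13, 0.21, −0.23 and −0.29 on the log2 scale. Direction rested on single libraries for ND1 and ND3, at 0.024 and 0.044 without saline library 2, and for ND4, at −0.015 without saline library 1.

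Encoded and nuclear subunits did not keep a fixed ratio. There were 2.7, 5.9 and 4.51 encoded counts per nuclear member count in saline libraries 1 to 3 and 3.96, 3.59 and 4.78 in ISO libraries 1 to 3. Saline library 1, which had the most nuclear complex I RNA, had the least encoded RNA, and saline library 2 had the least nuclear RNA in saline and the most encoded RNA. The 3 ISO libraries lay between these extremes. Mitochondrially encoded genes as a whole took 21.1, 29.2 and 26.4% of the counts used in saline and 23, 23.3 and 23.2% in ISO.

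Assembly factors build complex I from partial modules and are not part of the finished enzyme. Of 21 tested factors, edgeR called 2 lower in ISO and none higher, against 2.97% of all genes called in either direction. Ndufaf4, which acts on the Q module, stood at 60.2, 63.3 and 58.5 CPM in saline libraries 1 to 3 and at 38.9, 42.8 and 37.9 CPM in ISO libraries 1 to 3. All ISO values lay below all saline values, and the change was −0.61 (SE 0.0992, edgeR adjusted p = 0.0231). Tmem70, which serves the assembly of ATP synthase and of complex I, stood at 111, 123 and 102 CPM in saline libraries 1 to 3 and at 68.2, 74.7 and 57.8 CPM in ISO libraries 1 to 3. Its groups did not overlap either, and the change was −0.74 (SE 0.129, edgeR adjusted p = 0.0286). Both calls were lost without any 1 of the saline libraries or without ISO library 1, where adjusted p by edgeR lay between 0.0814 and 0.105, while the changes stayed between −0.58 and −0.80. Over the list, 15 of 21 were below 0 (against 47.7% of all genes), and the median was −0.24 (against 0.02). ISO lay below saline without overlap in 8 of 21 (against 14.6%) and above in none (against 14.1%).

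Regulators of mitochondrial genes held 2 called members of 15 tested, both lower, against 2.97% of all genes called in either direction. Ppara, a lipid-sensing nuclear receptor that activates genes of fatty acid catabolism, stood at 33, 40.3 and 33.9 CPM in saline libraries 1 to 3 and at 22.2, 21.5 and 15.8 CPM in ISO libraries 1 to 3, a change of −0.85 (SE 0.158, edgeR adjusted p = 0.033). Ppargc1b, a coactivator of mitochondrial biogenesis, stood at 51.8, 35.5 and 51.7 CPM in saline libraries 1 to 3 and at 24.9, 29.9 and 23.6 CPM in ISO libraries 1 to 3, a change of −0.83 (SE 0.172, edgeR adjusted p = 0.0461). In both genes all ISO values lay below all saline values. Both calls were lost without any 1 of the saline libraries or without ISO library 1, and that of Ppargc1b also without ISO library 3, without scaling and in voom. With 1 of these libraries left out, the edgeR adjusted p lay between 0.088 and 0.121 for Ppara and between 0.0525 and 0.176 for Ppargc1b. Over the list, 13 of 15 had log2 fold changes below 0 (against 47.7% of all genes), with a median of −0.14.

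The nuclear subunits of complexes II to V were measured beside complex I. Of 40 tested, edgeR called 0, against 2.97% of all genes. At an unadjusted p under 0.05 it had 4 lower (against 10.9% of all genes) and 1 higher (against 12%). DESeq2 called 2, both lower (against 4.28% of the genes it adjusted), and voom 0 (against 2.39%). Their log2 fold changes lay below 0 in 30 of 40, against 28 of 36 in complex I and 47.7% of all genes. Their median was −0.13, against −0.17 in complex I. No test of that difference was made. By complex, the medians were −0.24 for complex II, −0.15 for complex III, −0.02 for complex IV and −0.13 for complex V. Sdhc, a membrane anchor of complex II, and Uqcrc2, a core protein of complex III, were the members of these lists with the smallest p. Sdhc stood at 554, 559 and 548 CPM in saline and 387, 441 and 378 CPM in ISO, with −0.46 (SE 0.114, edgeR adjusted p = 0.068). Uqcrc2 stood at 948, 993 and 951 CPM in saline and 712, 808 and 631 CPM in ISO, with −0.43 (SE 0.133, edgeR adjusted p = 0.109). Both had ISO below saline without overlap, and both were called in DESeq2 and without ISO library 2. Of the others given by the same rule, Sdhd was at −0.29, Uqcr10 at 0.64, Cox5a at −0.33, Cox7b at −0.26, Atp5mc3 at −0.38 and Atp5me at −0.36 on the log2 scale, and none was called.

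Since the members shared an order of libraries, their promoters were searched for the motif of NRF1, a transcription factor known for its sites in nuclear genes of the respiratory chain. Promoters came from RefSeq on build GRCr8, and 34 of 37 members matched by symbol. The 250 bases before the annotated start were searched on both strands for GCGCA, any base, then GCGC. A match was found in 5 of 34 member promoters (14.7%), in 5 of 36 promoters of complexes II to V (13.9%), and in 5.07% of 21851 promoters of protein-coding genes or 3.75% of all 33469 promoters. The ETS core CCGGAAG, bound by GABPA among others, was found in 7 of 34 (20.6%), in 33.3% of complexes II to V and in 9.01% of protein-coding genes or 7.27% of all promoters. The other 4 motifs searched were no more frequent in members than in protein-coding genes. They were that of YY1 (AAGATG directly followed by GCG; 0 of 34, against 0.732% of protein-coding genes), that of the estrogen-related receptors (T, any base, then AAGGTCA; 0 of 34, against 0.879%), CCAAT (26.5%, against 35%) and the GC box GGGCGG (32.4%, against 38.9%). Matches of different motifs were counted separately, whether or not they overlapped. The 5 windows of 60 bases that hold the NRF1 letters are shown with the match in capitals, written 5′ to 3′ along the gene. In Ndufa12 the match is on the opposite strand, so its capitals are the reverse complement of the motif. Windows of the same length directly before the start of Ndufs3 and Ndufs4, which had the smallest p-values and hold no such match, are shown for comparison.
Ndufa5: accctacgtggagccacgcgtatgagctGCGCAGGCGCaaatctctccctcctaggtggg
Ndufa11: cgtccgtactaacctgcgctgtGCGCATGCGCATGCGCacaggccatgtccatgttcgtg
Ndufa12: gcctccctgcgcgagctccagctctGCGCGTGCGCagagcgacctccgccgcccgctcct
Ndufs5: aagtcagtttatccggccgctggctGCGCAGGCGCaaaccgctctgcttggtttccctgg
Ndufv3: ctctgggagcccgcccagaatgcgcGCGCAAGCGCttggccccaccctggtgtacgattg
Ndufs3: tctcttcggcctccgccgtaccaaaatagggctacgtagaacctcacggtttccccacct
Ndufs4: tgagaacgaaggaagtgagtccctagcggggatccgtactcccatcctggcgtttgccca
In GRCr8 these lie at chr4:53971236-53971295, minus strand (Ndufa5), chr9:1637495-1637554, plus strand (Ndufa11), chr7:30658179-30658238, plus strand (Ndufa12), chr5:141264497-141264556, minus strand (Ndufs5), chr20:9613722-9613781, plus strand (Ndufv3), chr3:97339655-97339714, minus strand (Ndufs3) and chr2:47794915-47794974, minus strand (Ndufs4).

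In Ndufa11 a pair of matches overlapped, starting 97 and 91 bases before the annotated start, and in Ndufa5 the match started 32 bases before it. Members with and without the NRF1 letters overlapped in their RNA values. The log2 fold changes of the 5 with them ran from −0.26 for Ndufa11 to 0.26 for Ndufa12, with a median of −0.13. The 28 tested members without them ran from −0.54 to 0.16, with a median of −0.19. For the ETS core the medians lay the other way, and the ranges again overlapped. The 6 tested members with it ran from −0.415 to 0.16, with a median of −0.25. The 27 without it ran from −0.54 to 0.26, with a median of −0.17. Nrf1 itself was at 16.3, 16.4 and 18.1 CPM in saline and 13.3, 16.6 and 16.3 CPM in ISO, with −0.14 (SE 0.139, edgeR adjusted p = 0.6), and Gabpa at 43, 48.3 and 50.5 CPM in saline and 45.9, 44 and 43.6 CPM in ISO, with −0.09 (SE 0.103, edgeR adjusted p = 0.657). These are matches of letters, and binding of either factor was not measured.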

How the data were processed

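RNA was measured in 6 rat heart libraries, 3 per group. Per the series description, the authors mapped paired reads of 150 bp with HISAT2 to a rat genome and obtained counts with featureCounts. Versions and strand setting: not given in the sources used here. A mouse build, mm10, stands in the submitters' notes, while the rows used here carry rat Ensembl identifiers. The deposited values are raw read counts per gene. Rows without a rat Ensembl identifier (1006, 0.981% to 1.32% of counts) were left out.

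Counts were tested over the whole table with edgeR 4.0.16 in R 4.3.3 (quasi-likelihood F test, TMM scaling, default filter on low counts, 13766 genes), adjusted by Benjamini-Hochberg. Replicate libraries come from separate rats. Alternatives used DESeq2 1.42.0, voom of limma 3.58.1, other scalings and filters, a replicate block and each library left out. The fits were also run on simulated data, with set changes larger than any estimated for a member. That outcome is not given here and says nothing on changes of the size seen in the members. Intervals are log2 fold change ± the t quantile times SE.

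Members and lists were chosen with earlier results of these data known. Genes given in full are the 8 smallest p, the 3 highest and 3 lowest changes, the core subunits of the matrix arm, the most and fewest counts, Ndufa4, Ndufa4l2 and Ndufab1. From each pathway list come up to 3 called genes or the 2 with the smallest p. Nrf1, Gabpa, Ndufb9, Echs1 and further members given by value were named after their values were seen. A member in the counts and sums is not reported here by name.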

Additional observations from a re-analysis of the deposited data

How the results depend on the processing

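The number of complex I members called stayed at 0 with DESeq2's size factors, without scaling, with both other filters and in voom. It was also 0 without mitochondrially encoded genes and at an adjusted p under 0.01. With rows without a rat Ensembl identifier kept, a setting chosen after seeing the data, it was 0 as well. It was 5 in DESeq2 and 1 by the series' rule, and from 0 to 3 with 1 library left out. The median of the members stayed below 0 in every setting, from −0.30 to −0.05 with 1 library left out. Of the 36 members, 22 were below 0 and 2 above 0 in all 14 other fits, and 12 had both signs. Among the genes chosen by the naming rule, signs turned for 5 with 1 library left out. The ranges were −0.19 to 0.23 for Ndufv1, −0.10 to 0.52 for Ndufa13, −0.53 to 0.024 for ND1, −0.36 to 0.044 for ND3 and −0.015 to 0.46 for ND4. Over all genes, 1312 were called in DESeq2, 1922 by the series' rule, 11 at an adjusted p under 0.01, and from 12 to 838 with 1 library left out, against 409. The fit without scaling gave 280 higher and 123 lower. The cause of these shifts was not tested. With the replicate number as a block, the members called stayed at 0, the genes called over the whole table numbered 28, and the calls of Ndufaf4, Tmem70, Ppara and Ppargc1b were lost. Same-numbered libraries had correlations of their deviations of 0.0874, -0.0989 and 0.0176, and differently numbered ones from -0.151 to 0.119. The numbers thus gave no sign of pairing, which so few libraries cannot exclude. With 3 rats per group, standard errors of 0.10 to 0.30 limit what could be called.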

Other observations

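Other mitochondrial gene groups also lay on the lower side in ISO, beside 47.7% of all tested genes with log2 fold changes below 0. Mitochondrial membrane and import genes had 19 of 19 tested members below 0 and a median of −0.26. edgeR called 0 of them (against 2.97% of all genes), and 8 were lower at an unadjusted p under 0.05 (against 10.9%). DESeq2 called 6 lower (against 4.28%) and voom 0 (against 2.39%). Immt, which shapes the cristae, stood at 381, 419 and 405 CPM in saline libraries 1 to 3 and at 274, 305 and 248 CPM in ISO libraries 1 to 3, with −0.54 (SE 0.12, edgeR adjusted p = 0.0529). Tomm20, a receptor of protein import, stood at 94.6, 100.1 and 98.4 CPM in saline and 72, 74.1 and 75.1 CPM in ISO, with −0.41 (SE 0.0917, edgeR adjusted p = 0.056). Both had ISO below saline without overlap. Immt was called without ISO library 2 (−0.63, edgeR adjusted p = 0.0305).

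Tricarboxylic acid cycle enzymes had 12 of 12 tested members below 0, a median of −0.26 and 0 calls by edgeR or voom, with 3 lower at an unadjusted p under 0.05 in edgeR (against 10.9% of all genes) and 1 called lower by DESeq2 (against 4.28%). Suclg2, a subunit of succinyl-CoA ligase, stood at 175, 168 and 151 CPM in saline and 113, 132 and 115 CPM in ISO, with −0.46 (SE 0.114, edgeR adjusted p = 0.0683), and Fh, the fumarase gene, was at −0.31 (edgeR adjusted p = 0.157). Fatty acid oxidation enzymes had 13 of 17 below 0, a median of −0.20 and 0 calls by edgeR or voom, with 5 lower at an unadjusted p under 0.05 in edgeR (against 10.9% of all genes) and 4 called lower by DESeq2 (against 4.28%). Hadh and Etfa, which act in beta-oxidation and in its electron transfer, lay below 0 as well. Hadh was at −0.52 (SE 0.123, edgeR adjusted p = 0.0614), and Etfa at −0.48 (SE 0.116, edgeR adjusted p = 0.0649). ISO library 3 was the lowest ISO library in 17 of 19 membrane and import genes, 11 of 12 cycle enzymes and 17 of 17 oxidation enzymes, against 35.6% of all genes.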
